A study of Mus musculus with 4 samples.

Results

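The Dlk1-Dio3 domain is a stretch of mouse chromosome 12 in which the parental alleles are used differently. Protein-coding genes such as Dlk1, Rtl1 and Dio3 are known for expression from the paternal allele. A chain of noncoding transcripts that starts at Meg3 and carries snoRNAs and microRNAs is known for expression from the maternal allele. The choice is known to depend on methylation of an intergenic control region between Dlk1 and Meg3, which is laid down in the male germ line, and the Meg3 start gains its own paternal methylation later. In brain the noncoding transcripts are abundant, and several of the microRNAs they carry act at synapses.

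The 10 members described here were taken by gene symbol, out of 46320 gene identifiers in the RNA tables: Begain, Dlk1, Meg3, Rtl1, Rian, Gm26945, Gm37899, B830012L14Rik, Mirg and Dio3. With them go the 3 of 1600 listed regions of allelic methylation that lie between Begain and Dio3 on chromosome 12 (build mm10). Prefrontal cortex of 14-week-old females, C57BL6J by Spretus F1 animals, was read by RNA-seq and by MethylC-seq (bisulfite sequencing that reads each cytosine). Each assay had 2 libraries, and there was no other genotype or treatment. All of these mice carried a mutation of Xist, the noncoding RNA that silences an X chromosome, on the maternal allele. RNA and DNA came from cortex pooled over 2 individuals of separate litters, and the MethylC-seq libraries came from separate PCR reactions on the same converted DNA. The cross was made in 1 direction, so parent of origin and strain cannot be told apart from these data alone.

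From the order of the strain label, C57 stands for the mother's allele and Spretus for the father's. As a check of this reading, 98.7% ± 0.210 (SD, n = 2) of Xist reads were Spretus. Reads assigned to an allele numbered 4768237 in library 1 and 1291903 in library 2. Markers of neurons had a median FPKM (a level scaled to transcript length and library size) of 455 and 107 in libraries 1 and 2, and those of choroid plexus 0.387 and 0.232. Markers of oligodendrocytes stood at 101 and 10.9 and those of blood at 291 and 20.5, so both fell more from library 1 to library 2 than the neuronal markers. The other 6 marker groups had medians of 0.166 to 22.5 in library 1 and 0.0827 to 5.89 in library 2, and no marker was at 0. The part of cell composition in the members' levels was not tested. No source says that the 2 RNA libraries came from different animals, so a p-value measures only the spread between them, which may be technical.

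Of the 10 members, 7 had the 10 allele-assigned reads in each library needed for a test. By edgeR's quasi-likelihood test, with p-values adjusted by Benjamini-Hochberg over 11981 genes, 6 were called toward C57 at an adjusted p of 0.05 or less. They were Meg3, Rian, Gm26945, Gm37899, B830012L14Rik and Mirg. The background was 3.04% of 11584 autosomal genes called toward C57. Begain alone was called toward Spretus, where the background was 2.41%, making 5.45% in either direction. DESeq2 called the same 6 members toward C57 and 0 toward Spretus, where its backgrounds were 1.15% and 1.05%. The median log2 ratio of Spretus over C57 was -7.59 over the 7 tested members and 0.02 over all autosomal genes tested. Dlk1, Rtl1 and Dio3 had 2 reads each in all and were not tested.

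Methylation in the window was higher on the paternal allele in each listed region. Of all 1006 autosomal regions of the deposited list, 26.6% were higher on Spretus, and here 3 of 3 were. Levels are fractions from 0 to 1, given by the authors for each allele without a value per library or a coverage, so no error can be put on them. The list does not hold the level of any stretch that was not called.

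The region at 109539967 to 109541807 on chromosome 12 covers the start of Meg3, with a level of 0.00693 on C57 and 0.872 on Spretus. It is 1840 bp long, and 5 of the 268 autosomal Spretus-higher regions were longer. Its level difference of 0.865 was exceeded by 21 of them. A further region, at 109527652 to 109528603, lies between genes, 64.3 kb after the end of Dlk1 and 12.4 kb before the start of Meg3. This is where the known intergenic control region lies. Its level was 0.358 on C57 and 0.944 on Spretus. The third region, at 109704379 to 109704857, lies 1.79 kb after B830012L14Rik and 24.9 kb before Mirg, with 0.459 on C57 and 0.918 on Spretus. The region at the Meg3 start held almost no methylation on C57, while the other two held intermediate levels there. For all autosomal Spretus-higher regions the median levels were 0.142 on C57 and 0.840 on Spretus, and the median length was 249.5 bp.

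**Figure D1:**
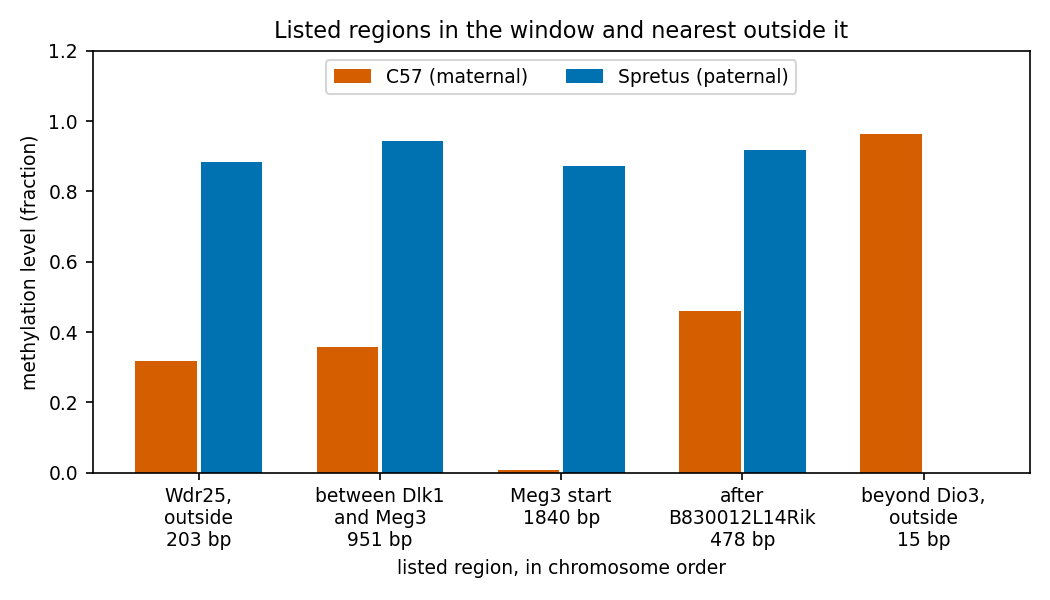
Methylation level (fraction) of each allele in the 3 listed regions of the window and in the nearest listed region on either side, in chromosome order. Bars are the authors' levels, orange for C57 and blue for Spretus, with no replicate values. The 3 window regions are higher on Spretus, and C57 is near 0 only at the Meg3 start (0.00693) among them.

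The nearest listed region on the proximal side, at 108979878 to 108980081 inside Wdr25, was also higher on Spretus (0.317 on C57 and 0.884 on Spretus). On the distal side the nearest was a 15 bp region at 110362744 to 110362759, with 0.963 on C57 and 0 on Spretus. No region was listed at the starts of Dlk1, Rian, Mirg, Dio3 or Begain.

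The start of Meg3 and, for contrast, those of Dlk1 and Rian are shown because the first lies wholly inside a listed region and the others overlap none. Each window runs from 250 bases before to 50 after a gene start in RefSeq, build GRCm38.p6, plus strand. They lie at chr12:109540746-109541045 for Meg3, chr12:109452573-109452872 for Dlk1 and chr12:109603695-109603994 for Rian. Capitals mark CG, the dinucleotide whose cytosine is most often methylated.
Meg3: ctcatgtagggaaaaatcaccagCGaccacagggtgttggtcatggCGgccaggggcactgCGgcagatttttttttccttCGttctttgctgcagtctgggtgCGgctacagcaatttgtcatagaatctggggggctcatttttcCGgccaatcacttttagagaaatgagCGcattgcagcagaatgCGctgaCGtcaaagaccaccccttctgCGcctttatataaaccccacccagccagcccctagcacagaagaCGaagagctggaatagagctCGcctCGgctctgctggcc
Dlk1: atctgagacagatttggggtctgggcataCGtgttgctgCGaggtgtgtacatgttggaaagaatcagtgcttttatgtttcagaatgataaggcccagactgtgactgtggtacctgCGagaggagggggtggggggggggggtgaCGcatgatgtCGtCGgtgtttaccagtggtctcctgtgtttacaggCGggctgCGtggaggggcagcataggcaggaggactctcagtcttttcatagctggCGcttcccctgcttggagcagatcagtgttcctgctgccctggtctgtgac
Rian: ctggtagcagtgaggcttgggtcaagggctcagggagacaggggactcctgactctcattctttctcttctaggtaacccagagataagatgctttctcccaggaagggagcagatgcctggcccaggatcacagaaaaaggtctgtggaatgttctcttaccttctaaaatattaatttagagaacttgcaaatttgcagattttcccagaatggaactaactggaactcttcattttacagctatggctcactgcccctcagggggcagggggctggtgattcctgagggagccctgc

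The Meg3 window printed here held 13 CG, the Dlk1 window 9 and the Rian window 0, against a median of 7 over 32851 RefSeq start windows of this length. Another RefSeq start window of Meg3, at 109545148 to 109545447, held 1 CG and overlapped no listed region. The Mirg window, at 109734731 to 109735030, lies inside the Mirg gene row (109729764 to 109749460) and not at its start, and held 10. The Dio3 window held 25. No window was available for Rtl1, Gm26945, Gm37899 or B830012L14Rik. The 5 Begain windows held 34 to 46, more than at least 92.3% of all windows. Of these members' windows, only the Meg3 window printed here held TGCCGC, the core recognised in methylated form by the imprint-keeping zinc finger protein ZFP57. It starts at base -190 and reads GCGGCA on the strand shown. The same window alone held TGACGTCA, the full site of CREB family factors, at base -57. Both motifs were searched on both strands. TGCCGC was in 11.6% of all windows, TGACGTCA in 1.79%, and 0.329% held both.

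Meg3 (ENSMUSG00000021268.16, 109541001 to 109571726), the noncoding RNA at the head of the maternal chain, had 4859 C57 and 111 Spretus reads in library 1 and 1882 and 39 in library 2. Its Spretus share was 2.23% in library 1 (exact Clopper-Pearson 95% interval 1.84 to 2.68%) and 2.03% in library 2 (1.45 to 2.76%). C57 reads outnumbered Spretus reads by 44.9-fold in summed reads, with a counting interval of 38.2 to 53.2. The log2 ratio was -5.46 (SE 0.48), with an adjusted p of 6.19e-06 in edgeR's quasi-likelihood test. Intervals cover counting error only, since reads carry no molecular identifiers.

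Rian (ENSMUSG00000097451.8, 109603940 to 109661716), the host transcript of a box C/D snoRNA cluster, had 3044 C57 and 47 Spretus reads in library 1 and 1164 and 19 in library 2. Its shares of 1.52% and 1.61% gave a mean of 1.56% ± 0.0605 (SD, n = 2). Mirg (ENSMUSG00000097391.7, 109729764 to 109749460), a noncoding gene that hosts microRNAs, had 724 C57 and 3 Spretus reads in library 1 and 176 and 1 in library 2. Its mean share was 0.489% ± 0.108 (SD, n = 2). In both libraries C57 reads far outnumbered Spretus reads for each of these genes. The log2 ratios were -5.96 (SE 0.44, adjusted p = 1.33e-06) for Rian and -7.59 (SE 0.30, adjusted p = 7.73e-08) for Mirg in edgeR's quasi-likelihood test.

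The members between and within these genes are noncoding loci known by number only. Gm37899 (ENSMUSG00000102657.1, 109668869 to 109677585) lies just beyond Rian and had 480 C57 reads with 1 Spretus read in library 1, and 137 with 0 in library 2. C57 reads outnumbered Spretus reads by 617-fold, with a counting interval of 110.33 to 24409 that reflects the single Spretus read. B830012L14Rik (ENSMUSG00000098202.1, 109695586 to 109702587) had 83 C57 reads in library 1 and 26 in library 2, with 0 Spretus reads in each. A count of 0 at this depth allows a Spretus share of up to 2.75%, so C57 was at least 36.3-fold higher with a floor of 3 counts over both libraries.

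Gm26945 (ENSMUSG00000098061.1, 109640341 to 109642351) lies inside the Rian locus. How a read within both loci was counted is not given, so its reads may be those of Rian. It had 163 C57 reads in library 1 and 46 in library 2, and 0 Spretus reads in each. That allows a share of up to 1.44%, or at least 69.7-fold more C57 with the same floor. Adjusted p-values in edgeR's quasi-likelihood test were 7.73e-08 for Gm37899, 1.74e-05 for B830012L14Rik and 2.14e-06 for Gm26945. The fitted ratios of these 3 depend on the small count added to each value and are not given.

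**Figure D2:**
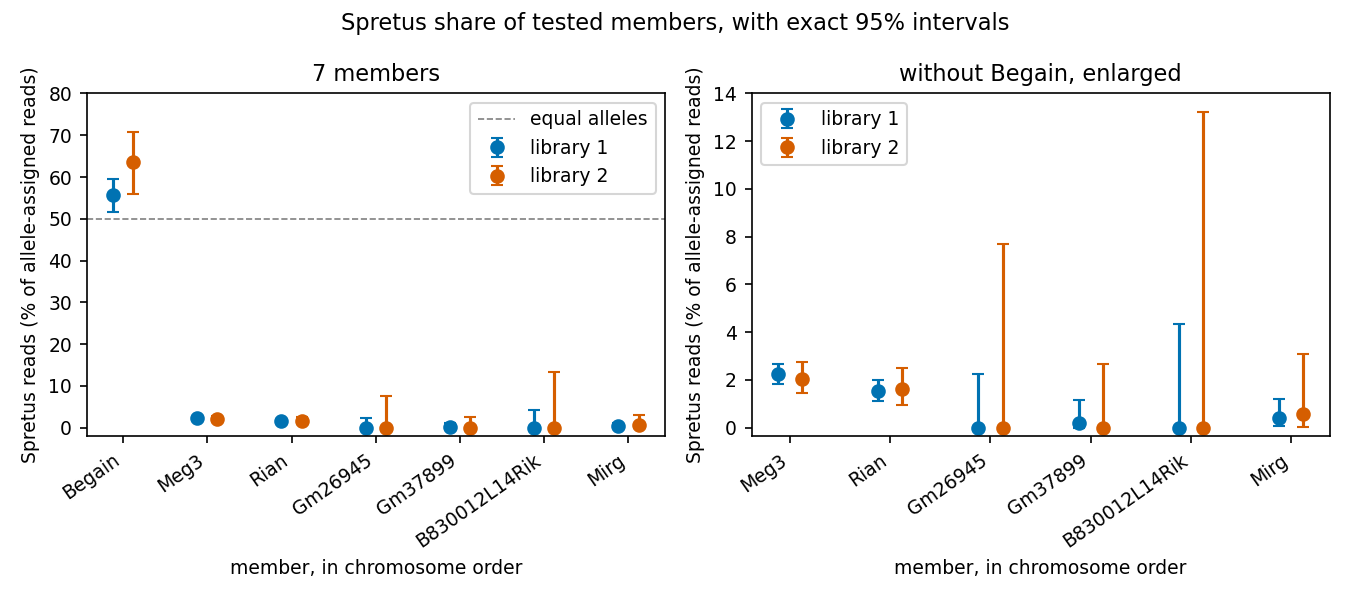
Spretus share (% of allele-assigned reads) of the 7 tested members in chromosome order, with library 1 in blue and library 2 in orange; bars are exact 95% intervals. The left panel has all 7 with a dashed line at equal alleles, and the right panel enlarges the 6 called toward C57, which sit at or below 2.23% in each library while Begain sits above the line.

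Ordered from low to high, the Spretus shares of the tested members ran B830012L14Rik and Gm26945 at 0%, then Gm37899, Mirg, Rian, Meg3 and Begain. Neighbours in this order were compared by a two-sided Fisher's exact test on summed reads, adjusted over 6 pairs. The order came from the same shares, and the test treats reads as independent, so its p-values cover counting error only. Rian lay 1.10 percentage points above Mirg (adjusted p = 0.0193, exact test), and Meg3 lay 0.633 points above Rian (adjusted p = 0.0390, exact test). Both differences had the same direction in each library, but neither passed in a library alone, with adjusted p of 0.0506 and 0.0512 in library 1 and 1 for both in library 2. Begain differed from Meg3 in each library (adjusted p = 1.36e-275 and 1.09e-103, exact test). The 3 lower pairs did not pass (adjusted p of 0.981 to 1), which does not show that these shares are equal. Between the libraries no tested member's share passed Fisher's exact test (adjusted p of 0.491 or more over 7 members). The lowest p was that of Begain, whose share moved from 55.7% to 63.6% (unadjusted p = 0.0701, exact test).

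Together the 6 C57-called members supplied 13005 reads, 5.51% of all allele-assigned reads on chromosome 12, and 85.9% of these came from Meg3 and Rian. Their pooled Spretus share was 1.70% in library 1 and 1.69% in library 2. Chromosome 12 had the lowest Spretus share of the 19 autosomes, 45.7% and 45.9%. Without the gene rows from Meg3 to Mirg it stood at 48.2% and 49.1%. In summed reads it then exceeded 15 of the other 18 autosomes, which kept all of their own gene rows, imprinted ones included.

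**Figure D3:**
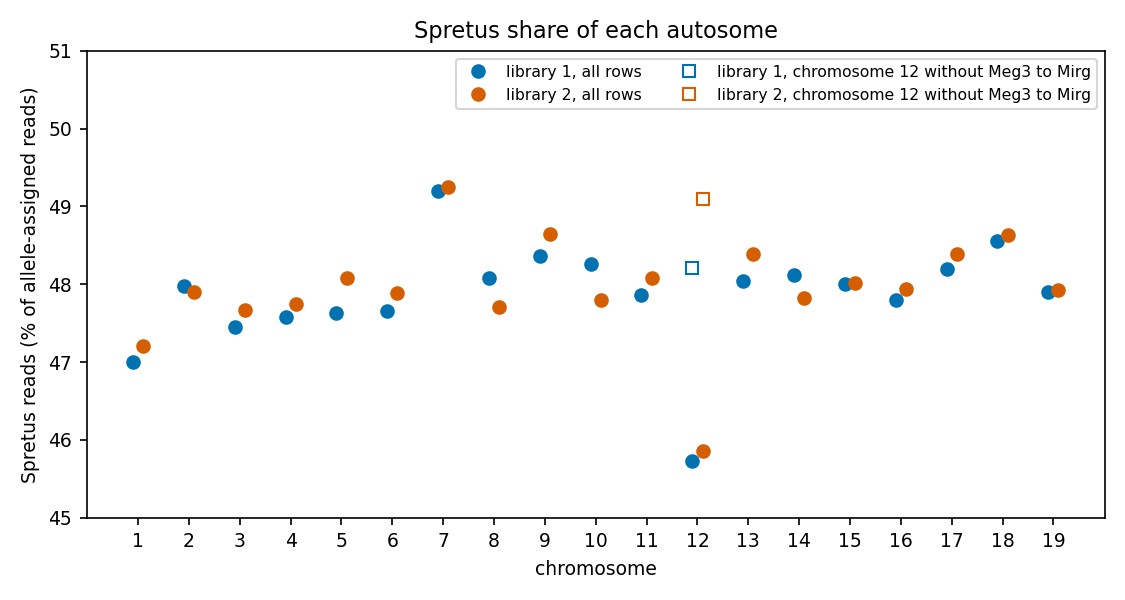
Spretus share (% of allele-assigned reads) of each autosome in library 1 (blue) and library 2 (orange); the axis starts at 45%. Filled points use all gene rows, and open squares show chromosome 12 without the rows from Meg3 to Mirg, where it moves from 45.7% and 45.9% to 48.2% and 49.1%.

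Among 7565 autosomal genes with at least 200 summed reads, 6 had a Spretus share under 5% in each library and 10 had one over 95%, limits set after the values were seen. Of the 6 toward C57, 5 were members of the domain (Meg3, Rian, Mirg, Gm37899 and Gm26945), and the other was A830036E02Rik on chromosome 11. None of the 10 toward Spretus was a member, but Dlk1, Rtl1 and Dio3 lay under the minimum of 200 reads and could not enter this count. Outside the window, the genes whose shares lay nearest to those of Meg3 over the 2 libraries were A830036E02Rik (3.08% and 3.41%), Clcn4-2 (7.73% and 1.48%), RP24-363O21.3 (6.61% and 6.38%), Kcnk9 (13.2% and 6.98%) and Ube3a (13.6% and 11.9%). The mean absolute difference from Meg3 ran from 1.12 percentage points for the nearest to 10.6 for Ube3a. All were taken as autosomal by their locus in build mm10, with Clcn4-2 on chromosome 7. Where they lie in the Spretus genome was not checked.

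The small rows of the chain leaned the same way. Between Meg3 and Mirg the tables listed 93 further rows, most of them microRNA and snoRNA genes, and 42 had at least 1 allele-assigned read. Summed, they had 304 C57 and 2 Spretus reads for library 1 and 65 and 1 for library 2, a share of 0.806% (exact 95% interval 0.167 to 2.34%). All 13 rows matched to a RefSeq snoRNA together had 69 C57 reads and 0 Spretus reads. Of these 93 rows, 45 lie inside a member, so their reads may be those of the longer transcript. The 48 outside every member locus had 202 C57 and 3 Spretus reads. Among the rows with at least 20 reads, Gm23600 inside Rian had 47 and 11 C57 reads in the 2 libraries, the snoRNA rows Gm24564 and Gm22205 had 16 and 6 and 19 and 5, and Mir453 inside Mirg had 26 and 4, each with 0 Spretus reads. Gm23600 was the only one deep enough for the test and was called toward C57 (adjusted p = 4.30e-05, edgeR's quasi-likelihood test).

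These libraries were not made for mature microRNAs, and a read at a hairpin may come from its long precursor, so the counts speak of the precursor's allele and not of microRNA level. Of 54 rows matched by symbol to a RefSeq microRNA, 27 had reads, with 212 C57 and 3 Spretus reads in all. In 24 of the 27 there was no Spretus read, and Mir3070a, Mir1197 and Mir654 had 1 each. The window holds 114 mature microRNAs with 104 seeds (bases 2 to 8, which pair with targets), of which 10 are shared between hairpins. Mature sequences are shown for the hairpins with the most reads and for 2 pairs that share a seed, to show what these precursors encode. They are from RefSeq, GRCm38.p6, plus strand, with the seed in capitals.
miR-453: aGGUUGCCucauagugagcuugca
miR-496a-5p: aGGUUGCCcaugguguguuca
miR-1197-5p: cGGUUGACcaugguguguacg
miR-758-5p: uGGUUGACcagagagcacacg
miR-666-5p: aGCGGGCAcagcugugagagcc
miR-544-5p: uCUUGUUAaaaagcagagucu
miR-1188-5p: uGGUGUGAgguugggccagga
miR-432: uCUUGGAGuagaucagugggcag

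miR-453 and miR-496a-5p, both inside Mirg, share the seed GGUUGCC, and their hairpins had 26 and 3 C57 reads for library 1 and 4 and 0 for library 2. miR-1197-5p and miR-758-5p share GGUUGAC, with 10 and 3 C57 reads for library 1 but 2 each for library 2, beside 1 Spretus read for Mir1197 in library 2. The 4 others had no Spretus read. Mir432, with 13 and 1 C57 reads, lies inside the Rtl1 locus, where microRNA genes are known to run antisense to Rtl1.

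The protein-coding genes known for paternal expression had almost no allele-assigned reads, and Dlk1 and Dio3 were also the lowest members in FPKM. Dlk1 (ENSMUSG00000040856.16, 109452823 to 109463336), a membrane protein related to Notch ligands, had 1 Spretus read and 0 C57 reads in each library, at 0.117 and 0.103 FPKM. Dio3 (ENSMUSG00000075707.5, 110279068 to 110281097), the deiodinase that inactivates thyroid hormone, had 1 read of each allele in library 1 and 0 in library 2, at 0.123 and 0.0225 FPKM. Rtl1 (ENSMUSG00000085925.2, 109589194 to 109600330), a gene derived from a retrotransposon, had 1 read of each allele in library 1 and 0 in library 2, at 2.999 and 0.461 FPKM. With 2 reads each, no allelic preference could be detected for any of the 3. Rtl1 reached nearly the FPKM of Gm37899 (3.26 and 0.679) but 2 allele-assigned reads against 618. The use of strand in counting is not given, so sense and antisense reads cannot be told apart here.

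Levels per length, both alleles together, had the same order in both libraries except for the last 2 members. Rian was highest (565 and 96.0 FPKM in libraries 1 and 2), followed by Meg3 (470.4 and 64.7), Mirg (33.1 and 5.43) and Begain (27.0 and 4.48). Then came Gm26945 (6.37 and 1.14), Gm37899, Rtl1 and B830012L14Rik (1.12 and 0.214). Dio3 and Dlk1 came last and changed places. FPKM was a median of 5.80 times higher in library 1 over all genes with FPKM of at least 1 in library 1 and at least 0.1 in library 2. With library 1 divided by this factor, Rian stood at 97.4 and 96.0 and Meg3 at 81.1 and 64.7. Rian was above Meg3 in both libraries with no overlap, though in library 1 the gap was no larger than the change of Meg3 between libraries. Gm37899 (0.561 and 0.679) was likewise above Rtl1 (0.517 and 0.461) without overlap, and in library 1 the gap was smaller than the change of either gene. Mirg (5.71 and 5.43) and Begain (4.66 and 4.48) lay further apart in each library than either moved. With 2 libraries these orders were not tested.

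**Figure D4:**
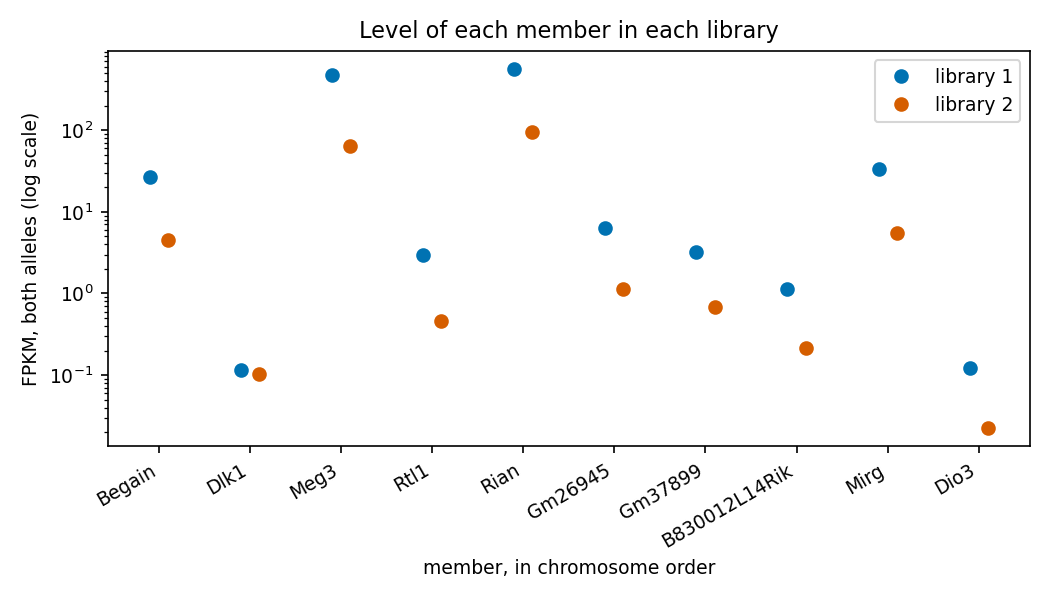
FPKM of each member (log scale, both alleles together) in library 1 (blue) and library 2 (orange), in chromosome order. Rian and Meg3 stand highest at 565 and 470.4 in library 1, while Dlk1 and Dio3 stand below 0.13 in each library.

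Begain (ENSMUSG00000040867.11, 109032187 to 109068217), a postsynaptic protein gene at the proximal edge of the domain, was the only tested member with more Spretus than C57 reads. Library 1 gave 352 Spretus against 280 C57 reads, and library 2 gave 112 against 64, which are shares of 55.7% (exact 95% interval 51.7 to 59.6%) and 63.6% (56.1 to 70.7%). The log2 ratio was 0.66 (SE 0.18), with an adjusted p of 0.0409 in edgeR's quasi-likelihood test. This call was lost in DESeq2 (adjusted p = 0.345), when both alleles were scaled by 1 library total (0.0954 in edgeR) and when 50 reads per library were asked for (0.0609 in edgeR). The call held in edgeR with DESeq2's size factors (adjusted p = 0.0466) and without a read filter (0.0175). It also held with the library as a block (1.01e-05 in edgeR), a fit that called 11.2% of autosomal genes toward Spretus.

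Wdr25, next to Begain and reaching into the window, had a share of 51.8% ± 1.63 (SD, n = 2; adjusted p = 0.851, edgeR's quasi-likelihood test). In the 1 Mb on either side of the window 22 genes were tested, with a median share in summed reads of 48.1% and a range of 32.1% to 73.2%. By edgeR's quasi-likelihood test with adjustment, 0 were called toward C57 and 1 toward Spretus, beside backgrounds of 3.04% and 2.41% of autosomal genes. DESeq2 called 0 and 0, beside 1.15% and 1.05%. At an unadjusted p under 0.05 in edgeR there were 1 and 3. No background is given for that threshold, so these 2 counts cannot be judged against all genes. With the library as a block, 3 were called toward C57 and 5 toward Spretus, against a background of 11.3% and 11.2% of autosomal genes in that fit. On the proximal side the highest ratio was that of Degs2, a sphingolipid desaturase gene, with 32 Spretus against 13 C57 reads for library 1 and 9 against 2 for library 2 (log2 ratio 1.58, SE 0.36, adjusted p = 0.0148 in edgeR's test and 0.395 in DESeq2). The lowest there was that of Ccnk, a cyclin gene, at 40.2% ± 3.79 (SD, n = 2). On the distal side Mok had the highest ratio, with 42 Spretus against 27 C57 reads for library 1 and 12 against 2 for library 2. Zfp839 had the lowest, with 25 against 61 and 10 against 13. Neither was called by edgeR's quasi-likelihood test (adjusted p = 0.127 and 0.150), while both were with the library as a block (adjusted p = 0.0171 and 0.00879).

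**Figure D5:**
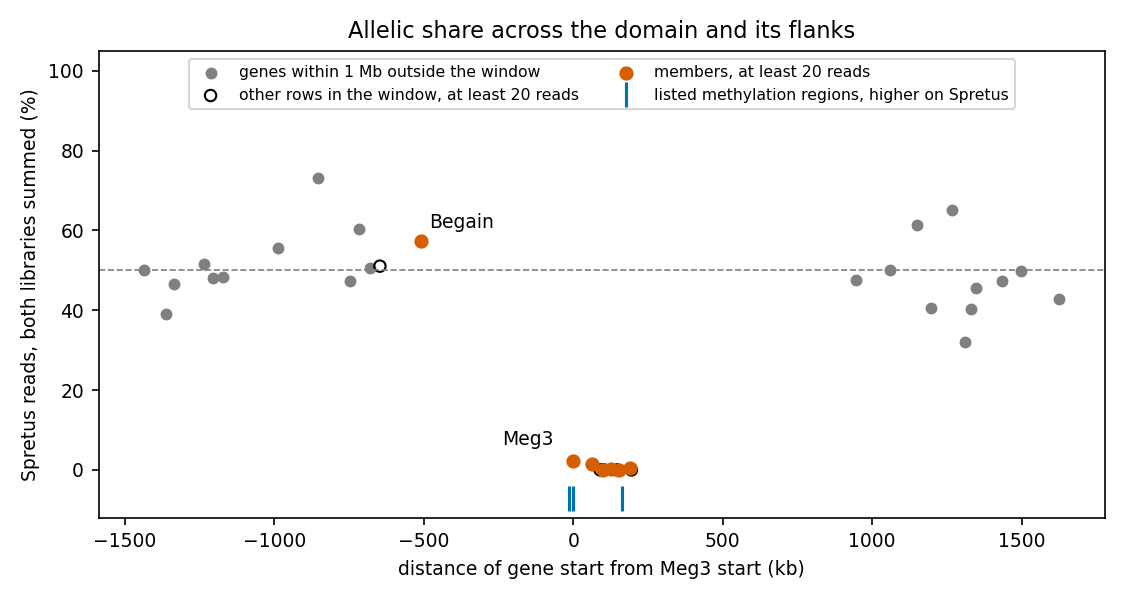
Spretus share of summed reads (%) against the distance of each gene start from the Meg3 start (kb). Orange points are members, open circles other window rows with at least 20 reads, grey points tested genes within 1 Mb outside the window, and blue ticks below 0 mark the 3 listed methylation regions; the points from Meg3 to Mirg lie at or near 0 while the flanking genes range from 32.1% to 73.2%.

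Over 5 lists of genes that work with the members, edgeR's quasi-likelihood test with adjustment called 2 toward C57 and 2 toward Spretus out of 85 autosomal genes tested, beside backgrounds of 3.04% and 2.41%. With the library as a block the counts were 8 and 13, beside backgrounds of 11.3% and 11.2%. A gene that was not called is not thereby shown to be balanced. For the Notch pathway, to which Dlk1 is related, 0 and 0 of 26 tested genes were called (0 and 4 at an unadjusted p under 0.05, and 0 and 0 by DESeq2, and 0 and 5 with the block). No background over all genes is given for an unadjusted p, so no lean toward Spretus is read from the 0 and 4. The Notch pathway genes with the most reads were Dner at 45.2% ± 2.76 and Notch2 at 45.4% ± 2.76 Spretus (SD, n = 2). For thyroid hormone handling, the setting of Dio3, edgeR called 0 and 0 of 15 (0 and 0 at an unadjusted p under 0.05 and by DESeq2, and 1 and 2 with the block), with the corepressor gene Ncor1 at 44.9% ± 2.25 and the coactivator gene Ncoa1 at 51.7% ± 0.0926 (SD, n = 2). The list medians of the log2 ratio were 0.03 for both, beside 0.02 for all autosomal genes tested.

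Among 5 tested genes of the Gag-like kind to which Rtl1 belongs, Peg10, itself a known imprinted gene, was called toward Spretus with 152 Spretus against 6 C57 reads for library 1 and 40 against 0 for library 2. Pnma2 (51.1% ± 3.40) and Ldoc1l (45.02% ± 0.715) were not. Of 19 genes for snoRNA particles and microRNA processing, Ago2, a microRNA effector, and Ruvbl1, an ATPase of snoRNA particle assembly, were called toward C57, at 25.8% ± 3.23 and 28.7% ± 3.62 Spretus. DESeq2 did not call Ruvbl1 (adjusted p = 0.354). Tnrc6b, with the most reads there, stood at 42.2% ± 0.384. Whether the calls of Ago2 and Ruvbl1 reflect imprinting of their loci was not tested. Of 20 genes of imprint maintenance, the methyl-CpG binding gene Mbd1 was called toward Spretus at 61.9% ± 0.591 (adjusted p = 0.0113 in edgeR's test, 0.256 in DESeq2 and 0.0627 in edgeR with shared totals). Tet2 stood at 43.0% ± 0.949 and Aff3 at 47.6% ± 2.00 (all SD, n = 2). The list medians of the log2 ratio were 0.18, 0.00 and -0.02.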

How the data were processed

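For RNA-seq the authors deposited raw read counts per gene for the C57 and the Spretus allele, and an FPKM value of each gene that does not separate the alleles, per the file headers. For MethylC-seq they deposited regions with a methylation level per allele as a fraction. TopHat2 2.0.9, Cufflinks 2.1.1, HTSeq 0.6.0 and bedtools 2.2.4 and the build mm10 come from the submitters' processing notes. The way reads were assigned to alleles, the annotation, strand use, coverage and caller settings were not given in the sources used here. Only reads over a strain difference can be assigned, so genes with few such differences have few allele reads. Gene starts, which counted from 0, are given from 1, and region coordinates as listed.

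The C57 and Spretus columns of both RNA libraries were fitted over all 11981 genes that reached 10 allele-assigned reads per library, with edgeR 4.0.16 (R 4.3.3) by the quasi-likelihood test, TMM scaling and allele as the only term. The script was tested on simulated data. There edgeR recovered 46% of 2-fold and 90% of 4-fold changes, and 6.21% of its calls were false. DESeq2 recovered 23% and 76%, with 1% of calls false. The simulation drew all columns independently, unlike the alleles of these libraries. Both alleles are read from 1 RNA sample, which pairs the columns by design (correlation of their deviations 0.597 over 7565 genes). A fit with the library as a block, DESeq2 1.42.0 and other scalings and read minimums were alternatives. Shares have exact Clopper-Pearson 95% intervals. A share of 0 allows 3 reads of the total. Fisher's exact tests came from scipy 1.17.1. Members and lists were chosen with earlier results of these data known. Named beside the members were window rows with at least 20 reads, the highest and lowest flanking genes, called list genes and the 2 with most reads per list, and the 5 genes nearest to Meg3 in share.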

Additional observations from a re-analysis of the deposited data

How the results depend on the processing

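The 6 calls toward C57 among the members held with the library as a block (replicate block), in DESeq2, with DESeq2's size factors in edgeR, with shared library totals and without a read filter. With at least 50 reads in each library, B830012L14Rik and Gm26945 were not tested and 4 calls remained. The Begain call toward Spretus fell to 0 in DESeq2, with shared totals and with the 50-read minimum. Flanking genes called were 3 toward C57 and 5 toward Spretus with the replicate block and 2 and 2 without a filter. The 1 Spretus call there, Degs2, was lost in DESeq2. With 50 reads Degs2 was not tested, and 0 of the 11 flanking genes still tested were called. Listed genes called were 8 and 13 with the block, 1 and 1 in DESeq2, and 1 toward Spretus with shared totals. With 50 reads they were 1 and 1 of the 53 still tested. Leaving out each library in turn leaves no residual degrees of freedom for the count tests, so it gave values only. Then the Spretus share of Rian exceeded that of Mirg by 1.04 to 1.11 percentage points and the share of Meg3 exceeded that of Rian by 0.424 to 0.713 points. No log2 ratio of a called gene named here changed sign under any of these settings. Of the 3 window regions, 2 passed a minimum of 200 bp and of 0.5 in level difference. Depth limits the shares of the members with few reads, and library 1 held 3.69 times the reads of library 2.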

Other observations

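Meg3 and Rian stood apart from the other members in how their reads were spread over the libraries. Library 1 held 2.59 times as many allele-assigned reads of Meg3 as library 2 and 2.61 times as many of Rian, against a median of 4.06 over the tested genes, and 3.61% and 3.90% of tested genes had a lower ratio. The other 5 tested members had ratios of 3.19 to 4.11. In FPKM the ratio of Meg3 was 7.27 and that of Rian 5.89, against a median of 5.72 over the tested genes. The measures thus placed Meg3 on opposite sides of the median gene, and also Rian, which was only slightly above it in FPKM. Begain (3.59 in reads and 6.04 in FPKM) was likewise on opposite sides. The allelic shares of Meg3 and Rian did not pass a test of difference between the libraries.

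Gm26906 inside the Meg3 locus was listed at 44.95 and 5.14 FPKM and Gm28498 inside Begain at 21.0 and 2.71 FPKM, and neither had an allele-assigned read in any library. Mir341 and Mir666 had FPKM of 1396 and 490.2 in library 1 and 0 in library 2, with 6 and 14 C57 reads for library 1 and 1 and 3 for library 2.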
